A study of Homo sapiens with 15 samples.

Results

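The genes described here are 36 targets and regulators of the sterol regulatory element-binding proteins (SREBPs), listed by symbol. They comprise 16 genes of cholesterol synthesis, 6 regulators of the pathway, 5 genes that supply acetyl-CoA, reducing power and fatty acid chains, 6 genes that desaturate or elongate fatty acids, and 3 that activate fatty acids or lead them into lipids. STARD4, a carrier of cholesterol and not a regulator, is counted in the group called regulators. A gene was followed through its probe sets that carry no other symbol, and the brightest of these over all arrays stood for the gene. Of the 36, 32 had such a probe set, among 19775 genes of the array, and all 32 passed the filter on low signal. FDFT1 and ACSL3 had no listed probe set, CYP51A1 and FADS1 were read only together with another symbol, and these 4 genes were not analysed here. The 32 measured members comprise 14 of cholesterol synthesis, 6 regulators, 5 of fatty acid supply, 5 of desaturation and elongation, and 2 of activation and lipid synthesis.

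SREBPs are transcription factors made as precursors in the membrane of the endoplasmic reticulum. When membrane sterols are scarce, the escort protein SCAP carries them to the Golgi, where proteases release the active part. INSIG proteins hold SCAP back when sterols are plentiful. SREBP-2, from SREBF2, acts mainly on the genes of cholesterol synthesis and uptake, and SREBP-1, from SREBF1, mainly on those of fatty acid synthesis and desaturation. Many carcinomas, ovarian cancer among them, make a large part of their own fatty acids by this route.

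Messenger RNA was measured in SKOV3ip1, an established line of human epithelial ovarian cancer cells, on Affymetrix arrays whose probe sets lie mostly near the 3′ end of a transcript. All 5 groups were SKOV3ip1 cells kept for 7 days in a defined folate state, and each group was 1 culture that gave 1 RNA extract, hybridised as 3 aliquots. The no-folate cells were in folate-free medium and the folate cells in medium with 2 to 10 nM folic acid (the labels write nm), both without antibody. The other 3 groups had the same folic acid medium and received an antibody for 24 hours: one labelled 003, the control antibody 004, or MORAb003. MORAb-003 binds folate receptor alpha, and whether 003 is that antibody too is not stated in the labels. The sample titles name the folate source by an abbreviation, MTF, that the labels do not explain. No source used here gives the serum and lipid content of the medium. The p-values below rest on the spread between aliquots of an extract, so they compare extracts and say nothing of the spread between cultures. The same holds where arrays of different extracts are said not to overlap, and the share of all genes so separated was not counted.

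RNA quality differed between the extracts, as read by control probe sets at either end of the actin and GAPDH transcripts. The 3′ minus 5′ gap of actin, in log2, was 4.09 ± 0.16 in the no-folate, 3.24 ± 0.13 in the folate, 4.02 ± 0.10 in the 003, 3.46 ± 0.31 in the 004 and 2.42 ± 0.13 in the MORAb003 extract (SD, n = 3 arrays). The gap of GAPDH was 2.37 ± 0.12, 1.97 ± 0.05, 2.49 ± 0.03, 2.05 ± 0.27 and 1.21 ± 0.14 in the same order. Replicate 1 of the 004 extract stood apart: its correlation with the other 004 arrays was at most 0.95, against 0.993 to 0.998 within every other extract. That array held the lowest of the 3 values of 004 for 31 of 32 members, against 68.3% of all genes tested, so each count of members called between extracts is also given without it; the counts of mean orders, of probe sets and with the stricter filter on signal rest on all 15 arrays. All 10 epithelial markers lay above the median probe set in every extract, while 3 of 5 leukocyte markers (PTPRC, CD14 and LYZ) and 2 of 8 stromal and endothelial markers (COL3A1 and LUM) lay below it in every extract. In bulk RNA, fewer cells of a type and less RNA per cell cannot be told apart. On the probe sets used, 17 members were called in at least 1 of 7 comparisons between extracts, and 15 in none. Called means an adjusted p under 0.05 and a difference of at least 1.5-fold. The share of all genes called in at least 1 comparison was not counted, so the 17 have no background to be judged by. In MORAb003 against 003 alone, 25.4% of all genes were called.

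**Figure D1:**
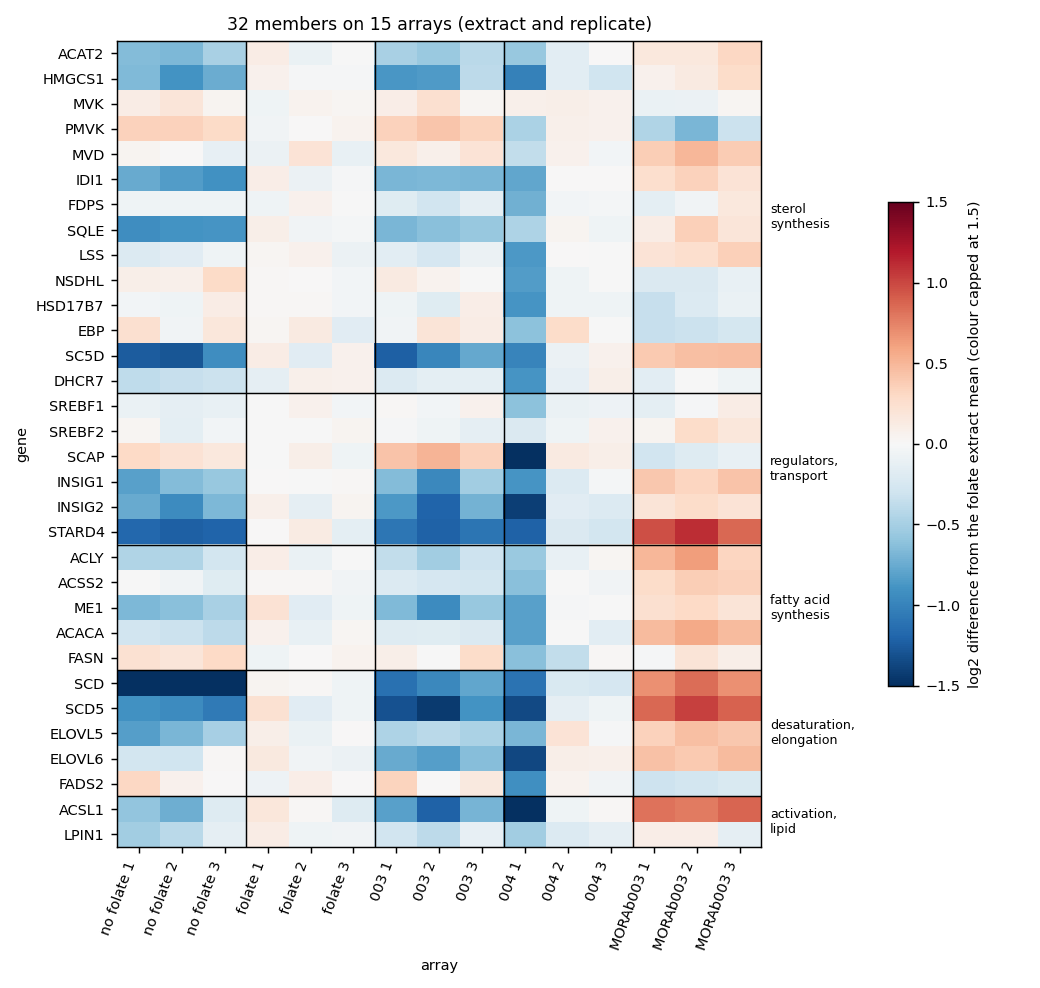
Log2 level of each of the 32 members on each of the 15 arrays, minus the mean of the 3 folate arrays, with members grouped by role and arrays by extract; colours are capped at 1.5. STARD4, SCD and SCD5 are low in the no-folate and 003 columns and high in the MORAb003 columns.

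The first comparison set 7 days without folate against 7 days with it. In the no-folate extract 9 of 32 members were lower than in the folate extract and 0 were higher, against 1.8% of 14369 genes called lower and 0.905% called higher. The members' median difference was -0.34 on the log2 scale, and the median of all genes was 0.01. By role, 5 of 14 sterol genes (ACAT2, HMGCS1, IDI1, SQLE and SC5D), 2 of 6 regulators (INSIG1 and STARD4) and 2 of 5 desaturation and elongation genes (SCD and ELOVL5) were lower, with 0 of 5 fatty acid supply genes and 0 of 2 activation and lipid genes. The median difference was -0.11 over the sterol genes, -0.40 over the regulators, -0.33 over fatty acid supply and -0.67 over desaturation and elongation. Without replicate 1 of 004, which shared only the estimate of error with this comparison, 12 were lower (INSIG2, ME1 and SCD5 besides) and 0 higher, against 5.16% and 1.35% of genes. With folate replicate 1, folate replicate 3, no-folate replicate 1 or no-folate replicate 2 left out, 3 members were called, against 0.633% to 0.926% of genes in either direction (2.71% with all arrays). Without no-folate replicate 3, 5 members were called, against 1.43% of genes. The actin gap was larger without folate (4.09) than with it (3.24), and the part of RNA quality in these differences was not tested.

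The second comparison set the 003 extract against the same folate extract, so the first and second comparison share their reference arrays. In the 003 extract 7 of 32 members were lower and 0 higher, against 1.59% of genes lower and 0.431% higher, and the members' median was -0.26 with 0.03 for all genes. The 7 were IDI1, SQLE and SC5D of cholesterol synthesis, INSIG1 and STARD4 of the regulator group, and the desaturases SCD and SCD5. The median difference was -0.17 over the sterol genes, -0.40 over the regulators, -0.25 over fatty acid supply and -0.75 over desaturation and elongation. Without replicate 1 of 004 the count was 12, against 6.55% of genes called lower and 0.742% higher, and HMGCS1, INSIG2, ME1, ELOVL6 and ACSL1 joined. The count was 0 without 003 replicate 1, 003 replicate 2, folate replicate 1 or folate replicate 3, where at most 0.0209% of all genes were called in either direction (2.02% with all arrays). It was 2 without folate replicate 2 (0.856% of genes) and 4 without 003 replicate 3 (0.976%). The 003 extract also had a larger actin gap (4.02) than the folate extract (3.24), and its part was not tested.

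The third comparison set the MORAb003 extract against the folate extract, again with the same folate arrays. There 3 of 32 members, STARD4, SCD and SCD5, were higher and 0 lower, against 4.77% of genes higher and 1.81% lower. The members' median was 0.22 and that of all genes -0.04. By role the median was 0.07 for sterol genes, 0.19 for regulators, 0.33 for fatty acid supply and 0.44 for desaturation and elongation. Without replicate 1 of 004, ACSL1 joined them, against 8.36% of genes called higher and 1.99% lower. The count was 1 without any one of the MORAb003 arrays or without folate replicate 2 or 3, where 2.97% to 4.69% of all genes were called in either direction (6.58% with all arrays). After quantile normalization PMVK was also called, as lower, for a split of 3 higher and 1 lower, against 7.15% of genes called in either direction. The actin gap was smaller with MORAb003 (2.42) than with folate alone (3.24), and its part was not tested.

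**Figure D2:**
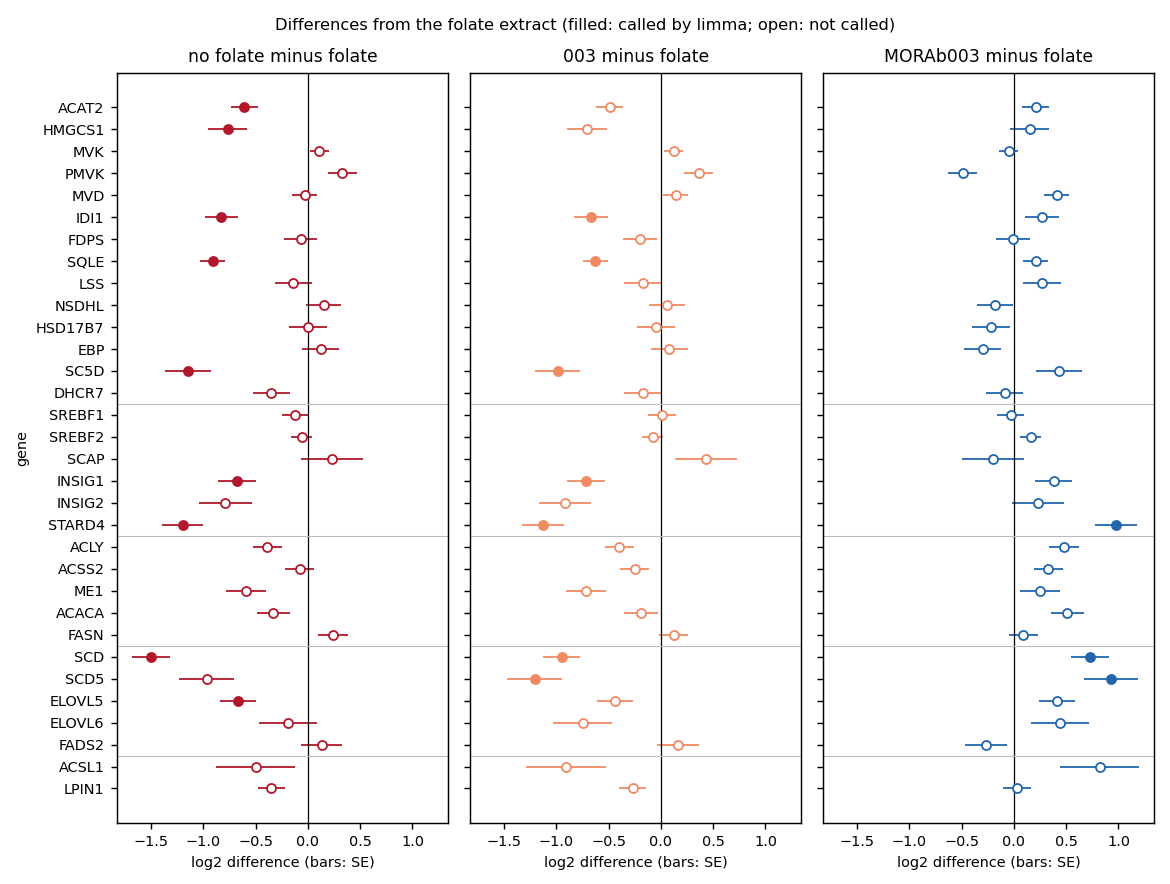
Log2 difference of each of the 32 members from the folate extract (horizontal axis) for the no-folate, 003 and MORAb003 extracts, with bars of 1 SE from limma, filled points for called and open points for uncalled differences. The called points lie below 0 for the no-folate and 003 extracts and above 0 for MORAb003, where STARD4, SCD and SCD5 are filled.

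The synthesis of cholesterol starts from acetyl-CoA. ACAT2, which joins a pair of acetyl-CoA molecules, was lower by 0.61 (log2, SE 0.13, adjusted p = 0.0225) in the no-folate extract. Its level there was 8.60 ± 0.10, against 9.21 ± 0.10 with folate (SD, n = 3 arrays). HMGCS1 makes the HMG-CoA of the mevalonate pathway. It was at 9.98 ± 0.12 without folate, 10.74 ± 0.04 with folate, 10.04 ± 0.27 with 003 and 10.89 ± 0.10 with MORAb003. The no-folate difference of HMGCS1, -0.77 (adjusted p = 0.0364), was called and its 003 difference, -0.71 (adjusted p = 0.0583), was not. Of the next enzymes of the pathway, MVK, MVD and FDPS were called in none of the 7 comparisons. The log2 level of MVK, mevalonate kinase, was 10.27 ± 0.07 on the no-folate arrays, 10.16 ± 0.06 with folate, 10.28 ± 0.11 with 003, 10.24 ± 0.01 with 004, and 10.11 ± 0.07 with MORAb003 (SD, n = 3 arrays). MVD, which decarboxylates mevalonate diphosphate, was at 7.43 ± 0.09 on the no-folate arrays, 7.45 ± 0.18 with folate, 7.6 ± 0.06 with 003, 7.34 ± 0.23 with 004, and 7.87 ± 0.07 with MORAb003. PMVK, the phosphomevalonate kinase, was lower with MORAb003 (9.34 ± 0.19) than with 003 (10.19 ± 0.05), by 0.85 (adjusted p = 0.000349), the opposite direction to every other member called between these extracts.

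IDI1 turns isopentenyl diphosphate into its isomer. IDI1 was at a log2 level of 10.75, 10.67 and 10.60 on the no-folate arrays, 11.61, 11.42 and 11.49 with folate, 10.82, 10.84 and 10.83 with 003, 10.73, 11.52 and 11.51 with 004, and 11.76, 11.86 and 11.71 with MORAb003. Its no-folate and 003 arrays all lay below every folate array. The difference from folate was -0.83 without folate (1.78-fold, SE 0.16, adjusted p = 0.0145), -0.67 with 003 (adjusted p = 0.0425) and 0.27 with MORAb003 (adjusted p = 0.303). The probe set of IDI1 is of a kind that can match related sequences, so its level is uncertain.

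SQLE, squalene epoxidase, carries out an oxygen-dependent and often limiting step. SQLE was at a log2 level of 12.27, 12.30 and 12.32 on the no-folate arrays, 13.29, 13.15 and 13.17 with folate, 12.52, 12.57 and 12.63 with 003, 12.74, 13.24 and 13.13 with 004, and 13.31, 13.56 and 13.38 with MORAb003. Its no-folate arrays lay below the arrays of every other extract. It was lower than with folate by 0.91 without folate (1.88-fold, SE 0.12, adjusted p = 0.0027) and by 0.63 with 003 (adjusted p = 0.0211). With MORAb003 it differed from folate by 0.21 (adjusted p = 0.275).

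SC5D, the sterol desaturase near the end of the pathway, had the largest no-folate difference of the sterol enzymes. SC5D was at a log2 level of 9.27, 9.24 and 9.59 on the no-folate arrays, 10.63, 10.35 and 10.58 with folate, 9.29, 9.54 and 9.75 with 003, 9.53, 10.43 and 10.58 with 004, and 10.91, 10.97 and 10.98 with MORAb003. The no-folate and 003 arrays did not overlap with the folate arrays, and the 004 arrays spread widely, with replicate 1 lowest. SC5D was lower by 1.15 without folate (2.22-fold, SE 0.22, adjusted p = 0.0115) and by 0.99 with 003 (adjusted p = 0.0276). Its MORAb003 difference from folate was 0.43 (adjusted p = 0.215).

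The remaining sterol enzymes, LSS, NSDHL, HSD17B7, EBP and DHCR7, were called in no comparison on the probe sets used. NSDHL, which takes part in removing methyl groups from sterols, was at 10.00 ± 0.12 on the no-folate arrays, 9.85 ± 0.03 with folate, 9.91 ± 0.07 with 003, 9.55 ± 0.46 with 004, and 9.67 ± 0.07 with MORAb003 (SD, n = 3 arrays). EBP, a sterol isomerase, was at 7.25 ± 0.15 on the no-folate arrays, 7.13 ± 0.15 with folate, 7.21 ± 0.12 with 003, 7.01 ± 0.45 with 004, and 6.83 ± 0.04 with MORAb003. LSS, which closes the sterol rings, differed from folate by -0.14 without folate and 0.27 with MORAb003 (SE 0.18 for both). DHCR7, the last reductase of the pathway, differed by -0.35 without folate (adjusted p = 0.323). A second DHCR7 probe set was called higher with MORAb003 than with 004, by 0.71 (limma over all probe sets, adjusted p = 0.00824). It was also called higher with MORAb003 than with 003, by 0.92 (adjusted p = 0.00101). On the probe sets used, differences from folate over all 15 members called in no comparison ran from -0.35 to 0.24 for no folate. They ran from -0.27 to 0.43 for 003 and from -0.30 to 0.41 for MORAb003.

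**Figure D3:**
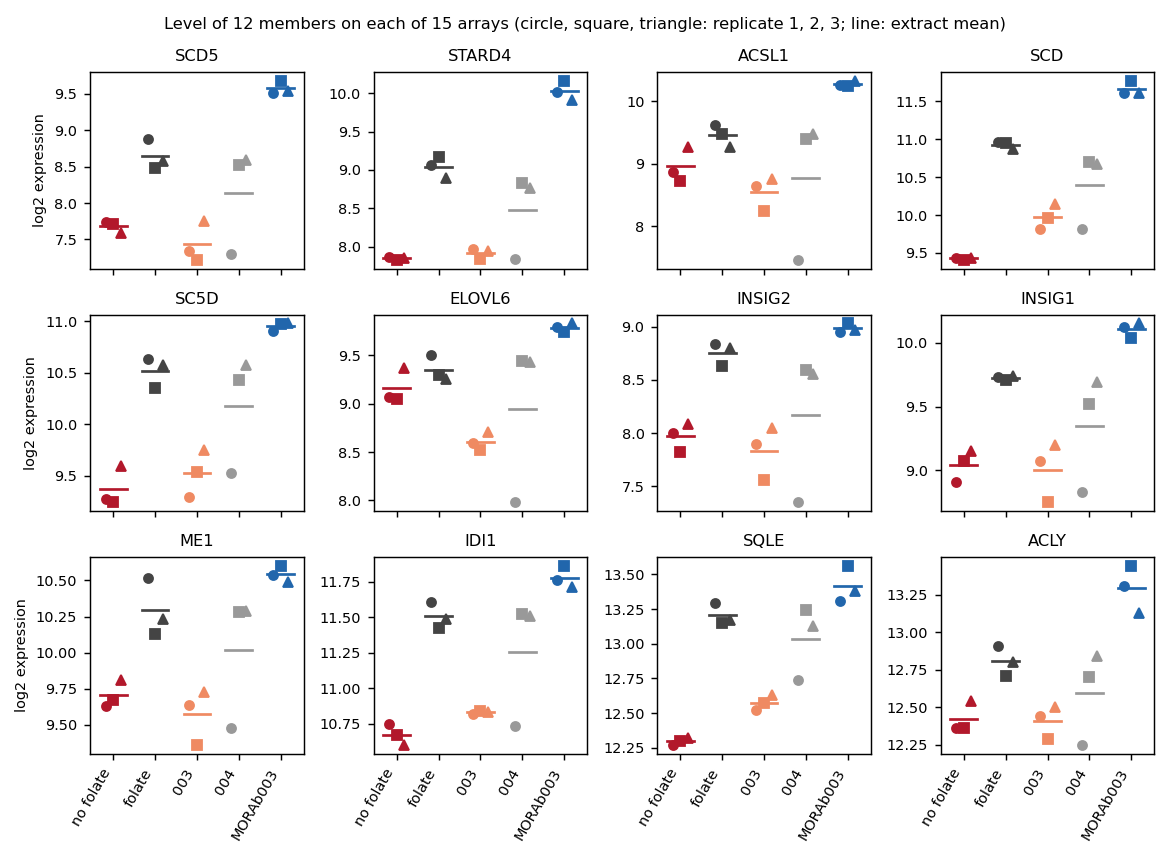
Log2 level on each array (circle, square and triangle for replicates 1, 2 and 3) and the extract mean (line) for the 12 members given in full, with the 5 extracts along the horizontal axis. These 12 are the called members with the largest differences in any comparison, a choice that favours separated arrays. In every panel except those of ACSL1 and ELOVL6, each no-folate and 003 array lies below every folate array. The share of all genes so separated was not counted. Replicate 1 of the 004 extract lies below the other 004 arrays in each panel.

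Of the regulators, the transcripts of the SREBPs themselves and of SCAP were called in no comparison on the probe sets used. SREBF1 differed from folate by -0.12 without folate, 0.01 with 003 and -0.03 with MORAb003 (SE 0.13 each). SREBF2 differed by -0.06, -0.08 and 0.16 in the same order (SE 0.10 each), and SCAP by 0.23, 0.43 and -0.20 (SE 0.30 each). The probe sets of SREBF2 disagreed between MORAb003 and 003, where the one used differed by 0.24 and was not called. Another was called there at -0.61 (limma over all probe sets, adjusted p = 0.00612), and a further one, at -0.52, was not called. The direction of SREBF2 between these extracts is therefore uncertain. Transcript level does not report the cleavage that activates an SREBP, which these arrays do not measure.

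INSIG1, which retains SCAP in the endoplasmic reticulum and is itself a classic SREBP target, was called in both comparisons with lower members. INSIG1 was at a log2 level of 8.91, 9.07 and 9.15 on the no-folate arrays, 9.73, 9.71 and 9.74 with folate, 9.07, 8.75 and 9.20 with 003, 8.83, 9.52 and 9.69 with 004, and 10.12, 10.04 and 10.15 with MORAb003. The no-folate and 003 arrays lay below every folate array, and the MORAb003 arrays above them. The differences from folate were -0.68 without folate (1.60-fold, SE 0.18, adjusted p = 0.0485), -0.72 with 003 (adjusted p = 0.0466) and 0.38 with MORAb003 (adjusted p = 0.187). INSIG2, its close relative, which responds less to SREBP, was called in the comparisons of MORAb003 with 004 and with 003. INSIG2 was at a log2 level of 8.0, 7.82 and 8.09 on the no-folate arrays, 8.84, 8.63 and 8.80 with folate, 7.90, 7.56 and 8.05 with 003, 7.35, 8.59 and 8.56 with 004, and 8.95, 9.03 and 8.97 with MORAb003. Its differences from folate were -0.79 without folate (adjusted p = 0.0976) and -0.92 with 003 (adjusted p = 0.063), both called without replicate 1 of 004.

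STARD4, which carries cholesterol between membranes, was called in 5 of the 7 comparisons. STARD4 was at a log2 level of 7.87, 7.83 and 7.85 on the no-folate arrays, 9.06, 9.17 and 8.90 with folate, 7.97, 7.84 and 7.95 with 003, 7.84, 8.83 and 8.77 with 004, and 10.02, 10.16 and 9.91 with MORAb003. The no-folate and 003 arrays were all below, and the MORAb003 arrays all above, every folate array. STARD4 was lower by 1.2 without folate (2.29-fold, SE 0.20, adjusted p = 0.00563), lower by 1.13 with 003 (2.19-fold, adjusted p = 0.0158) and higher by 0.98 with MORAb003 (1.98-fold, adjusted p = 0.00741). The no-folate difference was -1.27 among the arrays of the first array date in the labels and -1.06 on the second. The second date held only replicate 3 of each extract, so -1.06 is a difference between single arrays.

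Of the genes that supply fatty acid synthesis, 0 of 5 were called against folate on the probe sets used. ACLY, which makes cytosolic acetyl-CoA from citrate, is the first of these. ACLY was at a log2 level of 12.36, 12.36 and 12.54 on the no-folate arrays, 12.91, 12.71 and 12.80 with folate, 12.44, 12.29 and 12.50 with 003, 12.25, 12.70 and 12.84 with 004, and 13.31, 13.44 and 13.13 with MORAb003. Its MORAb003 arrays lay above the arrays of every other extract. The differences from folate were -0.39 without folate (adjusted p = 0.143) and -0.40 with 003 (adjusted p = 0.13). With MORAb003 the difference was 0.48 (adjusted p = 0.0425), which is under the 1.5-fold minimum. Its other probe sets read larger differences. One was called against folate at -1.01 without folate (adjusted p = 0.00921), -1.08 with 003 (adjusted p = 0.0158) and 0.87 with MORAb003 (adjusted p = 0.0122). The other was called against folate at -0.87 without folate (adjusted p = 0.0297), and its differences of -0.53 with 003 and 0.30 with MORAb003 were not called. These p-values come from the limma fit run over all probe sets.

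ME1 is the cytosolic malic enzyme, which yields NADPH. ME1 was at a log2 level of 9.63, 9.67 and 9.81 on the no-folate arrays, 10.52, 10.13 and 10.23 with folate, 9.64, 9.36 and 9.73 with 003, 9.48, 10.28 and 10.29 with 004, and 10.54, 10.60 and 10.49 with MORAb003. Its no-folate and 003 arrays did not overlap with the folate arrays. The difference was -0.59 without folate (adjusted p = 0.0942) and -0.72 with 003 (adjusted p = 0.0553), both called without replicate 1 of 004. ACACA, which makes malonyl-CoA, was at 10.11 ± 0.10 with folate and 10.62 ± 0.05 with MORAb003 (SD, n = 3 arrays), a difference of 0.51 (adjusted p = 0.0509). FASN, the synthase that builds palmitate, differed by 0.24 without folate, 0.12 with 003 and 0.09 with MORAb003 (SE 0.14 each). It was called in no comparison on this probe set. Its other probe set, of mean level 6.97, was called lower with MORAb003 than with 004 (-0.64) and than with 003 (-0.75). ACSS2, which activates acetate, was at 9.72 ± 0.09 on the no-folate arrays, 9.80 ± 0.04 with folate, 9.55 ± 0.03 with 003, 9.57 ± 0.35 with 004, and 10.13 ± 0.05 with MORAb003 and was not called either.

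SCD, the stearoyl-CoA desaturase that makes oleate, had the largest no-folate difference of all members. SCD was at a log2 level of 9.44, 9.41 and 9.44 on the no-folate arrays, 10.97, 10.95 and 10.87 with folate, 9.81, 9.96 and 10.15 with 003, 9.82, 10.70 and 10.68 with 004, and 11.61, 11.77 and 11.61 with MORAb003. The no-folate and 003 arrays lay below every folate array, and the MORAb003 arrays above them. SCD was lower by 1.5 without folate (2.82-fold, SE 0.18, adjusted p = 0.0024), lower by 0.95 with 003 (1.94-fold, adjusted p = 0.0211) and higher by 0.73 with MORAb003 (1.66-fold, adjusted p = 0.0218). Within the first array date the no-folate difference was -1.53, and within the second, again between single arrays, -1.43.

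SCD5, the second human stearoyl-CoA desaturase, was called in 4 of the 7 comparisons. SCD5 was at a log2 level of 7.74, 7.71 and 7.59 on the no-folate arrays, 8.88, 8.48 and 8.58 with folate, 7.34, 7.22 and 7.75 with 003, 7.30, 8.52 and 8.59 with 004, and 9.51, 9.68 and 9.54 with MORAb003. The 003 arrays lay below and the MORAb003 arrays above every folate array. Against folate SCD5 was lower by 1.21 with 003 (2.32-fold, SE 0.26, adjusted p = 0.0276) and higher by 0.93 with MORAb003 (1.91-fold, adjusted p = 0.037). The no-folate difference was -0.97 and was not called (adjusted p = 0.0545).

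ELOVL5, which elongates polyunsaturated fatty acids, was at 11.14 ± 0.16 without folate and 11.81 ± 0.09 with it (SD, n = 3 arrays), lower by 0.67 (1.59-fold, SE 0.17, adjusted p = 0.0459). ELOVL6, which elongates palmitate to stearate, was called for MORAb003 against 004 and against 003. ELOVL6 was at a log2 level of 9.07, 9.05 and 9.37 on the no-folate arrays, 9.50, 9.30 and 9.26 with folate, 8.59, 8.52 and 8.71 with 003, 7.98, 9.44 and 9.43 with 004, and 9.79, 9.74 and 9.83 with MORAb003. The 003 arrays lay below every folate array and the MORAb003 arrays above them, while the differences from folate, -0.75 and 0.44, had adjusted p = 0.147 and 0.337. FADS2, the delta-6 desaturase, was at 8.96 ± 0.16 on the no-folate arrays, 8.83 ± 0.09 with folate, 8.99 ± 0.16 with 003, 8.52 ± 0.53 with 004, and 8.56 ± 0.04 with MORAb003 and was called in no comparison.

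ACSL1 joins coenzyme A to long-chain fatty acids. ACSL1 was at a log2 level of 8.87, 8.73 and 9.27 on the no-folate arrays, 9.63, 9.48 and 9.27 with folate, 8.64, 8.25 and 8.76 with 003, 7.46, 9.39 and 9.48 with 004, and 10.27, 10.24 and 10.33 with MORAb003. Replicate 1 of 004 was far below the other 004 arrays, and the standard error of 0.38 was the largest of the 12 genes given in full. The differences from folate were -0.91 with 003 (adjusted p = 0.19) and 0.82 with MORAb003 (adjusted p = 0.182), and both were called without that array, at adjusted p = 0.000139 and 0.000187. The other ACSL1 probe set was called against folate with all arrays, in the limma fit over all probe sets. It differed by -1.28 without folate (adjusted p = 0.00462) and -1.24 with 003 (adjusted p = 0.0143). Its difference of 0.60 with MORAb003 was not called. LPIN1, which makes diacylglycerol and also acts on SREBP in the nucleus, was at 8.51 ± 0.20 on the no-folate arrays, 8.86 ± 0.10 with folate, 8.59 ± 0.13 with 003, 8.58 ± 0.21 with 004, and 8.88 ± 0.13 with MORAb003. It was called in no comparison on this probe set. Another LPIN1 probe set was called without folate at -0.91 (limma over all probe sets, adjusted p = 0.0438).

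The control antibody 004 was set against folate alone. Of 32 members 0 were called by limma, as were 0% of all genes. At an unadjusted p under 0.05, 5 members and 1276 genes differed, with all 5 members lower. Without replicate 1 these numbers were 2 members and 484 genes, and 0 members were called. The members' median difference was -0.29, against -0.13 for all genes, and -0.03 for the members without replicate 1.

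On the probe sets used, the 003 and the 004 extract differed in 0 of 32 members by limma, against 3.07% of genes called higher with 003 and 0.397% lower. Other probe sets of SQLE (-1.11), ACLY (-0.78) and ACSL1 (-1.03) were called lower with 003 in the limma fit over all probe sets. A further one of SQLE was called higher (0.71). At an unadjusted p under 0.05, 12 members differed, 5 higher and 7 lower with 003, as did 3195 of 14369 genes. This comparison depended on replicate 1 of 004. Without it 11 members were lower with 003 and 0 higher, against 5.54% of genes called lower and 0.806% higher, and the members' median moved from -0.01 to -0.19. The 11 were IDI1, SQLE, SC5D, INSIG1, INSIG2, STARD4, ME1, SCD, SCD5, ELOVL6 and ACSL1, with SCD5 at -1.12 and SC5D at -0.98. Without 004 replicate 2, 1 member was called higher with 003, and without replicate 3, 2 were, against 6.95% and 8.11% of genes in either direction (3.47% with all arrays). The actin gap was 4.02 with 003 and 3.46 with 004, and its part was not tested.

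MORAb003 against the control antibody 004 gave 11 members higher and 0 lower, where 17.6% of all genes were higher and 2.32% lower. The 11 were HMGCS1, SC5D, INSIG1, INSIG2, STARD4, ACLY, ACACA, SCD, SCD5, ELOVL6 and ACSL1. STARD4 was higher by 1.55 (2.93-fold, SE 0.20, adjusted p = 0.000213), ACSL1 by 1.5 (adjusted p = 0.0102), SCD5 by 1.44 (adjusted p = 0.00182) and SCD by 1.26 (adjusted p = 0.000494). Without replicate 1 of 004 the members' count was 5 (STARD4, ACACA, SCD, SCD5 and ACSL1), against 9.95% of genes higher and 2.4% lower, and the differences of STARD4, ACSL1, SCD5 and SCD were 1.23, 0.85, 1.02 and 0.97. Without 004 replicate 2 or 3 the count was 17, against 28.4% and 30.3% of genes in either direction (19.9% with all arrays), and without MORAb003 replicate 2 it was 7, against 14.7%. After quantile normalization 6 members were higher and 1, PMVK, lower, against 18.4% of genes called in either direction. The median of all genes then moved from 0.04 to -0.10. The members' median was 0.53, and 0.27 without replicate 1 of 004. The actin gap was 3.46 in the 004 and 2.42 in the MORAb003 extract, and its part was not tested.

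Of the 7 comparisons, MORAb003 against 003 had the most members called. With MORAb003, 16 members were higher and 1, PMVK, lower than with 003, against 17.6% of genes higher and 7.79% lower, and the members' median was 0.64 with -0.09 for all genes. By role, 5 of 14 sterol genes were higher and PMVK lower, and 3 of 6 regulators, 3 of 5 fatty acid supply genes, 4 of 5 desaturation and elongation genes and 1 of 2 activation and lipid genes were higher. SCD5 differed by 2.14 (4.42-fold, SE 0.26, adjusted p = 5.53e-05) and STARD4 by 2.11 (4.32-fold, SE 0.20, adjusted p = 1.11e-05). ACSL1 differed by 1.73, SCD by 1.69, SC5D by 1.43, ELOVL6 by 1.18, INSIG2 by 1.15 and INSIG1 by 1.10. Without replicate 1 of 004 16 were higher and 2, PMVK and SCAP, lower, against 18.7% of genes higher and 8.0% lower. After quantile normalization 14 were higher and 3, PMVK, SCAP and FADS2, lower, against 25.4% of genes called in either direction. These extracts also stood far apart in the actin gap, at 4.02 and 2.42, and the part of RNA quality in the difference was not tested.

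The order of the 5 extract means was common to many members. MORAb003 had the highest mean for 21 of 32 members (65.6%), against 32.6% of all genes tested. The no-folate or the 003 extract had the lowest for 20 of 32 (62.5%), against 26.5%. Of the members for which MORAb003 did not have the highest mean, PMVK was the one that had been called. The rest, such as MVK, FDPS, NSDHL, HSD17B7 and FASN, were called in no comparison on the probe sets used. This split follows largely from the calls, as 16 of the 17 called members were called higher with MORAb003 than with 003. The actin gap of the extracts had the reverse order, largest without folate and smallest with MORAb003, and neighbours in this order (no folate and 003) differed by less than the spread of their arrays. With the filter at the 75th percentile of signal, 30 of 32 members and 9196 genes were tested. There 33.3% of 30 members were called lower without folate, against 3.4% of genes, and 33.3% with 003, against 3.1%. For MORAb003 against folate 10.0% of these members were called higher, against 6.67% of genes.

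**Figure D4:**
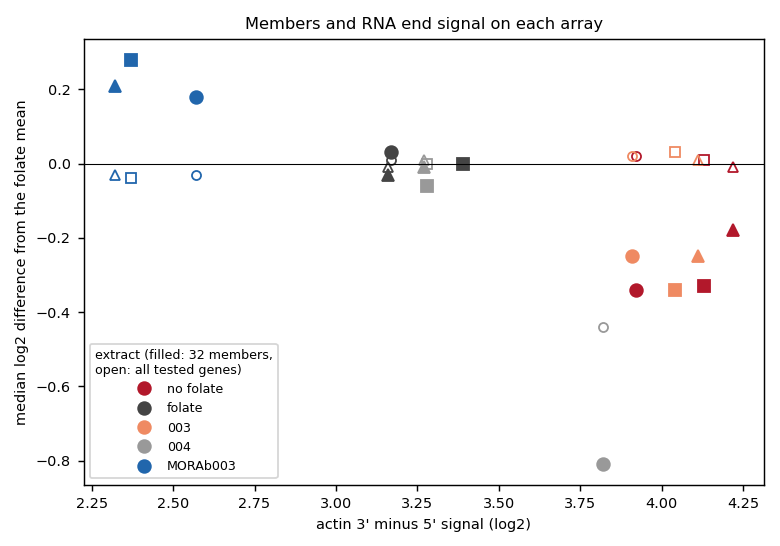
Median log2 difference from the folate mean on each array (vertical axis) over the 32 members (filled) and over all tested genes (open), against the 3′ minus 5′ gap of actin in log2 (horizontal axis), coloured by extract. Member medians lie at 0.18 to 0.28 on the MORAb003 arrays, at -0.34 to -0.18 on the no-folate and 003 arrays, which have the largest gaps, and at -0.81 on replicate 1 of the 004 extract, where the median of all genes is -0.44.

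The other probe sets of the members gave a check within each transcript. The members had 76 probe sets, and 38 of the 44 others were tested. The counts below are for members called on the probe set used. The matching shares for the other probe sets of all called genes were not counted, so these counts have no background. For the called no-folate differences, 9 of 14 other probe sets had the same sign, 5 were called the same way and 0 the opposite way. For 003 against folate 9 of 11 had the same sign and 3 were called, and for MORAb003 against folate 3 of 4 had the same sign and 0 were called. Between MORAb003 and 004, 12 of 13 had the same sign and 7 were called the same way. Between MORAb003 and 003, 19 of 23 had the same sign, 11 were called the same way and 1 the opposite way. All 3 probe sets of INSIG1 were lower without folate and with 003: the other 2 differed by -1.32 and -0.75 without folate and by -1.17 and -0.91 with 003. With MORAb003 those 2 were called higher than with folate, by 0.94 (adjusted p = 0.0154) and 1.44 (adjusted p = 0.000401), where the one used was at 0.38 and not called. Other probe sets of HMGCS1 (0.70), SQLE (1.08), ACLY (0.87) and ELOVL6 (0.98) were also called higher with MORAb003 than with folate, and another of SQLE lower (-0.64), while the probe sets used for these genes were not called there. The SQLE probe set at 1.08 differed by -1.89 without folate and -1.51 with 003. Some probe sets disagreed. SCD had 3 others tested, which differed by -0.34, -0.08 and -0.23 without folate, and none was called there. None of them was called with 003 or with MORAb003 against folate either. A second SCD5 probe set was called higher by 1.10 without folate, against -0.97 for the one used, so the direction of SCD5 without folate is uncertain. It is outside the no-folate counts above because the SCD5 probe set used was not called there. The SQLE probe set at -0.64 was also lower with MORAb003 than with 003, by 1.06 (limma, adjusted p = 7.68e-05). Its mean level over all arrays was 12.15, against 12.91 for the SQLE probe set used.

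**Figure D5:**
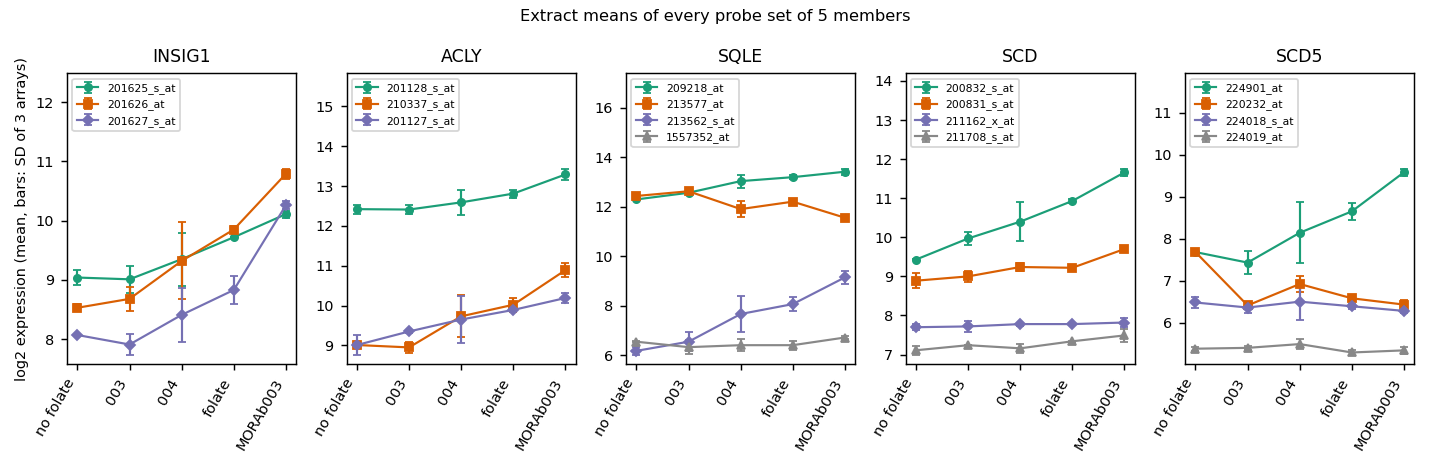
Mean log2 level of every probe set of INSIG1, ACLY, SQLE, SCD and SCD5 in the 5 extracts, with bars of 1 SD over 3 arrays. All 3 INSIG1 probe sets are higher with MORAb003 than without folate, while 1 SQLE probe set and 1 SCD5 probe set run the other way.

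Promoter sequences were read for 29 of the 32 members from RefSeq (GRCh38.p14), as windows from 250 bases before to 50 after each start site, 46 windows in all. SREBPs bind sterol regulatory elements, often beside a CCAAT box bound by the factor NF-Y, and can bind an E-box. On either strand, the element TCACNCCAC was in 2 of 29 members (6.9%) against 1.39% of all 27305 genes with a window, and the palindrome TCACGTGA was in 1 member (3.45%) against 1.18% of genes. CCAAT was in 22 of 29 members (75.9%) against 39.7% of all genes with a window. It was in 11 of the 15 members with a window that were called in at least 1 comparison and in 11 of the 14 called in none. A match is only a run of letters. The following windows belong to the 3 members with the largest differences, STARD4, SCD5 and ACSL1, and to SREBF2 and INSIG1. SREBF2 and INSIG1 were added after their matches were seen because they hold the sterol element and the E-box. ACSL1 has 5 windows, and the one shown was picked because it holds the sterol element. The windows are given 5′ to 3′ on the strand of the gene, and capitals mark matches of the 3 motifs on either strand.
ACSL1: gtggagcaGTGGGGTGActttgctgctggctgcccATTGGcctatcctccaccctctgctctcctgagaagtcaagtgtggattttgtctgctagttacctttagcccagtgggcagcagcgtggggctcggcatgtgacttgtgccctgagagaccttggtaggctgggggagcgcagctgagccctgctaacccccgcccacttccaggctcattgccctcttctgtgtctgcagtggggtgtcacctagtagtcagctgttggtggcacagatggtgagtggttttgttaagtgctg
SCD5: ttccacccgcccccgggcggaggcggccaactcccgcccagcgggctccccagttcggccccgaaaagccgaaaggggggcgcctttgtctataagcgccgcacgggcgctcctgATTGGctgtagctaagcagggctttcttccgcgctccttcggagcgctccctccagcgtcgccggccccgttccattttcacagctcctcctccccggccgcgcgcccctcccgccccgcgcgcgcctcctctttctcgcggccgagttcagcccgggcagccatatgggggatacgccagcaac
STARD4: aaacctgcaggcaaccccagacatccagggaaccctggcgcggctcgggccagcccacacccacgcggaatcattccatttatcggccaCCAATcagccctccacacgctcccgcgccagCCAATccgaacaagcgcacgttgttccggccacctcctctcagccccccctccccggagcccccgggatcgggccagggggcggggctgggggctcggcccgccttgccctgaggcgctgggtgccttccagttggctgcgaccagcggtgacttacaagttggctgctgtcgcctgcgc
SREBF2: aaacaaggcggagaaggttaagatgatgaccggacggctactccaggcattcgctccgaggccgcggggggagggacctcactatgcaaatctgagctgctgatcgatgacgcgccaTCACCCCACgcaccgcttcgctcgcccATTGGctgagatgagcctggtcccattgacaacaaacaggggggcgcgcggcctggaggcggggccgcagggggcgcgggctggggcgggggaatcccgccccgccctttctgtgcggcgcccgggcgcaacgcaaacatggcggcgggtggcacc
INSIG1: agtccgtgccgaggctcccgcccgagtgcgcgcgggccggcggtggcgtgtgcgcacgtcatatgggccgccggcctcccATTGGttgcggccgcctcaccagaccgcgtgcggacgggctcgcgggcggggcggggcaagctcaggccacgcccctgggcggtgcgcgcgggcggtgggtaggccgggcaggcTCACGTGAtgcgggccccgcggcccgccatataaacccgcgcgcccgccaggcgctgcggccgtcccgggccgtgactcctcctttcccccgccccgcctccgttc
The windows lie at chr4:184805504-184805803 for ACSL1 (minus strand, 1 of its 5 start sites), chr4:82798747-82799046 for SCD5 (minus strand), chr5:111512486-111512785 for STARD4 (minus strand), chr22:41832855-41833154 for SREBF2 (plus strand) and chr7:155297628-155297927 for INSIG1 (plus strand). The sterol element is in the windows of ACSL1 and SREBF2 and the E-box in that of INSIG1, all 3 picked for these matches. CCAAT is in all 5 windows. On the probe set used, SREBF2 differed from folate by at most 0.16 in size in the no-folate, 003 and MORAb003 extracts. With MORAb003 its other probe sets differed from folate by -0.35 and -0.38, and neither was called. INSIG1 was called lower in the no-folate and 003 extracts.

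Of 36 further genes of sterol and fatty acid handling, 32 were tested. Against folate, 3 were lower without folate and 0 higher: LIPA, the lysosomal lipase that frees cholesterol, by 1.09, ACSL4, which activates polyunsaturated fatty acids, by 1.01, and NPC1, which exports cholesterol from lysosomes, by 0.59. With 003, ACSL4 was lower by 1.06, LIPA by 0.94 and GGPS1, the synthase of geranylgeranyl diphosphate, by 0.62, with 0 higher. With MORAb003, 7 were higher and 0 lower, led by ACSL4 (0.98), MSMO1, a sterol demethylase (0.91), ELOVL7 (0.77) and NPC2 (0.73). For 004 against folate 0 were called, and 003 against 004 gave 1 higher, FADS3 (0.64), and 1 lower, GGPS1 (-0.59). MORAb003 against 004 gave 17 higher and 0 lower, with ACSL4 at 1.39, MBTPS2, a protease that releases SREBP, at 1.32, MSMO1 at 1.29 and ERLIN2 at 1.27. MORAb003 against 003 gave 16 higher and 1 lower, MLXIPL (-0.66), with ACSL4 at 2.04, MSMO1 at 1.62, LIPA at 1.52 and MBTPS2 at 1.47. These counts may be read against the shares of all genes given for the same comparisons: 1.8% lower without folate, 1.59% lower with 003, 4.77% higher with MORAb003, 3.07% higher and 0.397% lower for 003 against 004, and 17.6% higher for MORAb003 against 004 and against 003. Without replicate 1 of 004 and with 0 higher, 4 of the 32 genes were lower without folate (5.16% of all genes lower), 6 with 003 (6.55%) and 6 with 003 against 004 (5.54%). Without that array and with 0 lower, 10 were higher with MORAb003 than with folate (8.36% of all genes higher) and 11 than with 004 (9.95%). Against 003 it gave 16 higher and 1 lower (18.7% and 8.0% of all genes), and 004 against folate gave 0. The median difference of the 32 genes from folate was -0.15 without folate, -0.18 with 003 and 0.32 with MORAb003.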

How the data were processed

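Total RNA was isolated with Trizol and hybridised as biotinylated cRNA, per the labels' protocols. The deposited table holds log2 values per probe set, with a normalization by the authors that no source used here gives. Of 54675 probe sets, 62 controls were left out. Gene symbols came from the platform annotation, updated through RefSeq, and the brightest probe set over 15 arrays stood for a gene. A gene was tested if at least 1 extract mean reached log2 6.60, the median probe set, and 14369 genes were. The 5 extract means were fitted to all 15 arrays in R 4.3.3 with lmFit and eBayes of limma 3.58.1, with Benjamini-Hochberg adjustment over the genes tested. A call needed an adjusted p under 0.05 and a difference of at least 1.5-fold. The fit was tested on simulated data. Every called member was named, and the 12 with the largest differences were given on every array. Of the further pathway genes, up to 4 called per comparison were named. The members and gene lists were chosen with earlier results of these data known. The number of arrays limits the precision. The alternatives tried are in the closing section.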

Additional observations from a re-analysis of the deposited data

Results flagged for a closer look

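STARD4, SCD and SCD5 differed from folate in opposite directions in the extracts labelled 003 and MORAb003. STARD4 was called lower with 003 (-1.13) and higher with MORAb003 (0.98), and the difference between these extracts was 2.11 (limma, SE 0.20, adjusted p = 1.11e-05). SCD was called at -0.95 and 0.73, with a difference of 1.69 (limma, SE 0.18, adjusted p = 2.51e-05). The 3 other probe sets of SCD differed from folate by -0.23, -0.06 and -0.10 with 003. With MORAb003 they differed from folate by 0.47, 0.03 and 0.15, and none of these differences was called. Between the extracts they differed by 0.70, which was called, 0.10 and 0.25. SCD5 was called at -1.21 and 0.93, with a difference of 2.14 (limma, SE 0.26, adjusted p = 5.53e-05). The other tested probe set of SCD5 did not show this: it differed from folate by -0.17 and -0.15, and between the extracts by 0.01 (adjusted p = 0.926). On the probe set used for each gene, every 003 array lay below every folate array and every MORAb003 array above them. The share of all genes separated in this way was not counted. Each antibody was given to 1 culture, and the actin 3′ minus 5′ gap differed between the 2 extracts (4.02 and 2.42), so antibody, culture and RNA quality cannot be told apart.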

How the results depend on the processing

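Members called, given as no folate, 003 and MORAb003 each against folate, then 003 and MORAb003 against 004 and MORAb003 against 003, numbered 9, 7, 3, 0, 11 and 17, where 2.71%, 2.02%, 6.58%, 3.47%, 19.9% and 25.4% of all genes were called; percentages below are of all genes. A 2-fold minimum gave 3 (0.445%), 2 (0.404%) and 0 (1.67%) against folate, 4 (7.8%) for MORAb003 against 004 and 8 (9.95%) for MORAb003 against 003. Without a fold minimum there were 6 (11.1%) for MORAb003 against folate, 1 (5.96%) for 003 against 004 and 21 (35.1%) for MORAb003 against 004. The first array date alone gave 0 against folate in all 3 comparisons (0%, 0% and 0.157%). This setting is the same as leaving out replicate 3 of every extract. The mean of all probe sets gave 4 (1.37%) for 003 against folate. Fitting only the 6 arrays compared gave 12 (7.34%) for 003 against folate and 0 (0.177%) for MORAb003 against 004. Quantile normalization gave 3 (3.93%) for 003 against 004 and 7 (18.4%) for MORAb003 against 004. Leaving out single arrays or replicate numbers gave 0 to 12 for no folate (0% to 6.51%), 0 to 12 for 003 (0% to 7.3%) and 0 to 4 for MORAb003 (0.0138% to 12.3%) against folate, 0 to 11 for 003 against 004 (0% to 8.11%), 4 to 17 for MORAb003 against 004 (4.13% to 30.3%) and 9 to 18 for MORAb003 against 003 (9.31% to 26.8%). The cause of these shifts was not tested. For 004 against folate the count was 0 in every alternative. With the replicate number as a block the counts were 7 (2.28%), 5 (1.56%), 3 (6.17%), 0 (3.12%), 11 (19.7%) and 17 (25.4%). Arrays with the same number did not deviate together (median correlation -0.065 over 30 pairs, 8 of them over 0.1), so the numbers were not taken to pair the arrays. With the array date as a block the counts were 8 (2.6%), 6 (1.82%), 3 (6.44%), 0 (3.15%), 11 (19.9%) and 17 (25.4%). All 47 called differences kept their sign on both array dates and after quantile normalization. The dates are parts of the same arrays that gave the calls, and the second date is 1 array per extract, so a kept sign is a weak check. Of the 47, 36 were still called after quantile normalization and 24 on the first array date alone.

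Of the other probe sets, 13 differences had the opposite sign to the called one. For IDI1 these were 0.04 (no folate), 0.05 (003) and -0.07 (MORAb003 against 003). For SQLE they were 0.23 and 0.14 (no folate), 0.42 (003) and -1.06 (MORAb003 against 003). For ME1 the value was -0.15 (MORAb003 against 003). For SCD5 they were -0.15 (MORAb003 against folate) and -0.49 (MORAb003 against 004). For ELOVL5 they were 0.30 and 0.21 (no folate) and -0.30 (MORAb003 against 003).

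Each condition was 1 culture and 1 extract. The 5 extracts also differed in the 3′ to 5′ gap of control transcripts.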
